A study of Homo sapiens with 6 samples.

Results

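Homologous recombination copies lost sequence at a DNA double-strand break from an intact sister chromatid. Nucleases first trim the broken ends, the BRCA1, PALB2 and BRCA2 proteins then prepare the exposed strand, and further proteins drive the search for the matching sequence and its pairing. The pathway works mainly in S and G2 phase and competes with end joining, which 53BP1 favours. The 9 genes described here are BRCA1, BRCA2, BARD1, PALB2, RAD51B, RAD52, RAD54L, RBBP8 and EXO1. They were chosen by symbol, all 9 were found among the 39020 genes listed in any of the 6 libraries, and all 9 passed the low count filter in iCLIP.

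Irradiated cells were exposed to X-rays at 5 Gy and left for 4 h, and untreated cells were not exposed. Both were U2OS, a human osteosarcoma cell line. For iCLIP, in which RNA is crosslinked by ultraviolet light to bound protein before the protein is pulled down, 2 libraries came from irradiated and 2 from untreated cells of genotype TIRR_FLAG, stably transfected with a FLAG-tagged form of TIRR, a partner of 53BP1. For RNA-seq, 1 library came from irradiated and 1 from untreated wild-type cells, so the assays also differ in genotype. The series' design text speaks of gamma rays for RNA-seq. The sources used here do not say whether the transfected line is a single clone or whether replicates were separate cultures, so the p-values rest on a library-to-library spread that may be technical. Empty-vector cells were not analysed here, and no background could be set beside the iCLIP values.

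The iCLIP libraries held 400723 and 664777 counts on genes in irradiated and 781997 and 799709 in untreated cells, and the RNA-seq libraries held 13023903 and 13015406. Of 16 osteoblast and mesenchymal markers, 10 had at least 100 counts in untreated RNA-seq, with VIM highest at 36294, while the osteoblast markers SP7, BGLAP and COL1A2 had 0, 3 and 6. Of 14 markers of other cell types, 3 reached 100 counts (KRT8, KRT18 and GFAP). Of genes with at least 500 counts in untreated RNA-seq, 20.7% have no line in any iCLIP table and were not analysed there, but none of the 9 genes is among them.

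RefSeq places 4 of the 9 genes head to head with another gene. Their promoter window, 250 bases before to 50 after the start, holds the start of a gene on the opposite strand, as do the windows of 14.6% of the 27305 genes in the same table, counting any window of a gene. These are BRCA1 (with NBR2 at its downstream start and NBR1 at its upstream start), BRCA2 (with ZAR1L), PALB2 (with DCTN5) and RBBP8 (with RBBP8-AS1). Of the 9 genes, 3 hold CCAAT on either strand in a window (39.7% of all genes), 1, EXO1, holds an E2F-like word (TTTGGCGC, TTTCCCGC, TTTGCCGC or TTTCGCGC on either strand, 3.99% of all genes) and 0 hold TTTGAA on either strand (18.2% of all genes). The windows of PALB2 and BRCA1 are shown because both partners in each pair have RNA-seq counts to compare below. They are read on the strand of the named gene, from RefSeq on GRCh38.p14, with CCAAT or its reverse complement in capitals. PALB2 lies on the minus strand at chr16:23641261-23641560 and DCTN5 starts 156 bases from it, and the BRCA1 window lies on the minus strand at chr17:43125315-43125614 with the start of NBR2 193 bases away.
PALB2: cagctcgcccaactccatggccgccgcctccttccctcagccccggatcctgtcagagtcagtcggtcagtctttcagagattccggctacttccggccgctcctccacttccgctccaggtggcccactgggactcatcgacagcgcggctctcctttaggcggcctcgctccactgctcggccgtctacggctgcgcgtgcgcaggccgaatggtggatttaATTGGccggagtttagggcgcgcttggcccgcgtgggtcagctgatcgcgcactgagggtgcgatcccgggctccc
BRCA1: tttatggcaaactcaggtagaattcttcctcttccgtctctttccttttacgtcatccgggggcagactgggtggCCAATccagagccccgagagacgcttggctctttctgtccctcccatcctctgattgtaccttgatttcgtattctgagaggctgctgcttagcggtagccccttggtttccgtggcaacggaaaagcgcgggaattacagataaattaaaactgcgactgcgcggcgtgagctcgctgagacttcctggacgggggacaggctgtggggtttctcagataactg

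The first question was what share of the TIRR iCLIP counts each gene held, without a background to set beside it. RAD51B dominated the group. It encodes a protein that aids strand exchange, and lies on chromosome 14, 67819779 to 68683096 (ENSG00000182185). RAD51B held 384 and 634 counts in the irradiated libraries, against 914 and 898 in the untreated ones. That was 0.0958% (exact Clopper-Pearson 95% interval 0.0865 to 0.106) and 0.0954% (0.0881 to 0.103) of the gene counts in irradiated cells, against 0.117% (0.109 to 0.125) and 0.112% (0.105 to 0.120) in untreated cells. Intervals on shares cover counting error only. RAD51B alone made up 66.1% and 66.8% of the counts of the 9 genes in irradiated and 69.3% and 68.3% in untreated iCLIP libraries. In RNA-seq it made up 8.38% of them in irradiated and 8.38% in untreated cells.

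Among the other genes, RAD54L and BRCA1 had the largest mean shares in each condition, although RAD52 had 58 counts against 57 for BRCA1 in irradiated library 2. RAD54L, a motor protein that helps strands pair (chromosome 1, 46247688 to 46278473, ENSG00000085999), held 41 and 74 iCLIP counts in irradiated and 81 and 79 in untreated cells. BRCA1, a ubiquitin ligase subunit that promotes end trimming (chromosome 17, 43044295 to 43170327, ENSG00000012048), held 39 and 57 in irradiated and 77 and 81 in untreated cells. Its partner in the ligase, BARD1 (chromosome 2, 214725646 to 214809683, ENSG00000138376), held 25 and 44 in irradiated and 61 and 68 in untreated cells. RAD52, which anneals single strands (chromosome 12, 911736 to 991122, ENSG00000002016), and RBBP8, which encodes the end-trimming factor CtIP (chromosome 18, 22914139 to 23026486, ENSG00000101773), were in the same range. RAD52 held 36 and 58 counts in irradiated and 58 and 70 in untreated cells, and RBBP8 held 26 and 39 in irradiated and 60 and 62 in untreated cells.

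The sparsest members were EXO1, PALB2 and BRCA2. EXO1, a nuclease that extends the trimmed ends (chromosome 1, 241847986 to 241889939, ENSG00000174371), held 14 and 20 counts in irradiated and 30 and 22 in untreated cells. PALB2, which links BRCA1 to BRCA2 (chromosome 16, 23603165 to 23641310, ENSG00000083093), held 8 and 12 in irradiated and 15 and 15 in untreated cells. BRCA2, which acts on the trimmed strand before pairing (chromosome 13, 32315077 to 32400268, ENSG00000139618), held 8 and 11 in irradiated and 22 and 19 in untreated cells. Positions are RefSeq spans on GRCh38.p14, and the lengths used here are those in the deposited tables, which differ from these spans for 8 of the 9 genes (BARD1 has the same length in both). The tables give lengths of 32.0 kb (RAD54L) to 909.9 kb (RAD51B), introns included, and the largest gap is for RBBP8, with 227731 bases in the iCLIP tables against a RefSeq span of 112348.

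**Figure D1:**
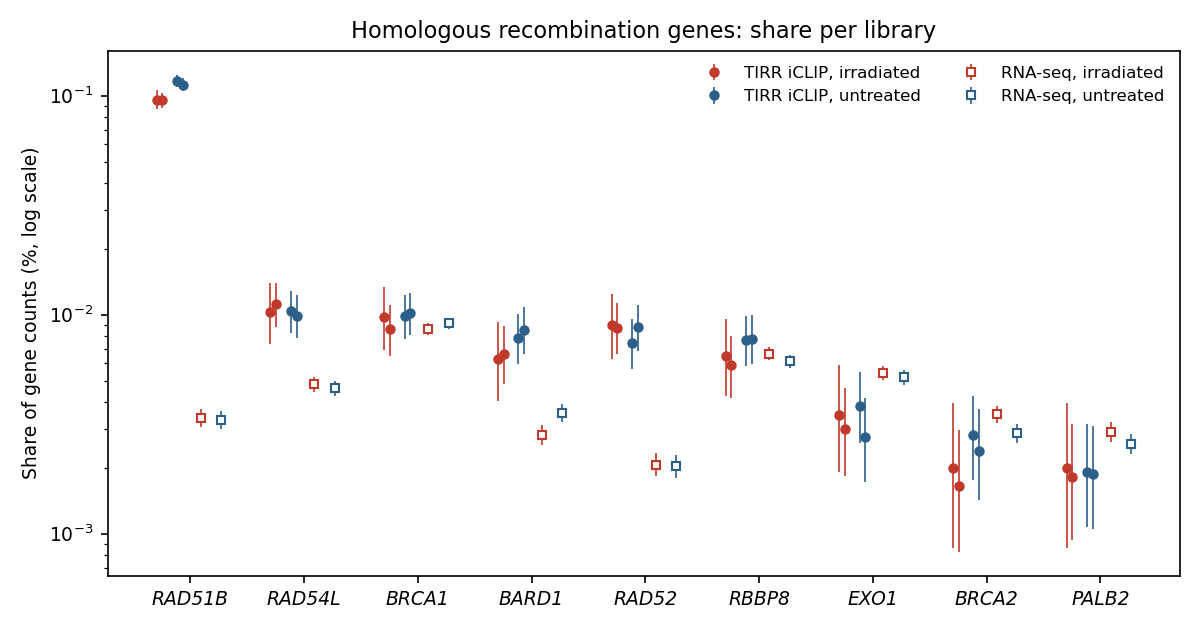
Share of gene counts in each library (percent, log scale) for the 9 genes; filled circles are TIRR iCLIP, open squares RNA-seq, red irradiated and blue untreated cells, and bars are exact 95% counting intervals. RAD51B lies near 0.1% in iCLIP and far above every other gene, while in RNA-seq it lies among them.

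Set against gene length, the order changed. RAD54L led with 3.34 ± 0.199 iCLIP counts per kb and per 1000000 gene counts in irradiated and 3.16 ± 0.106 in untreated cells (mean ± SD, n = 2 each), above all other members in every library. In untreated cells 85.3% of 9328 genes with at least 20 untreated counts lay below it, and their median was 0.888. RAD51B had 1.05 ± 0.00355 in irradiated and 1.26 ± 0.0357 in untreated cells, so its large share came with a density not far from that median. Next in untreated cells came RAD52 (1.07 ± 0.125), BARD1 (0.970 ± 0.0591), BRCA1 (0.960 ± 0.0192) and EXO1 (0.698 ± 0.163). PALB2 (0.497 ± 0.00787), RBBP8 (0.339 ± 0.00249) and BRCA2 (0.310 ± 0.0369) were lowest by the lengths in the tables (mean ± SD, n = 2 each). On its shorter RefSeq span RBBP8 had 0.687 in untreated cells, above PALB2 at 0.497, so its place in the order depended on the length used. The untreated libraries of RAD52 and BARD1 overlapped, as did those of BARD1 and BRCA1, and in irradiated cells the mean of RAD52 (1.18) was above that of RAD51B (1.05), with 1.12 and 1.11 on the RefSeq spans.

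The next question was whether irradiation changed these amounts in iCLIP. Of the 9 genes, 0 passed the edgeR quasi-likelihood test at an adjusted p of 0.05, where 3.50% of the 9230 tested genes did (2.43% higher and 1.07% lower after irradiation). DESeq2 also called 0, and 0 of the 9 had an unadjusted edgeR p below 0.05, against 14.5% of all tested genes. The median log2 fold change was -0.08 over the 9 genes and 0.00157 over all tested genes. In such lysates, less RNA per cell and fewer cells that hold the RNA cannot be told apart. Values below are CPM, counts per 1000000 of the library size after TMM scaling.

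RAD51B, the member measured most precisely, had 988 and 970.0 CPM in irradiated and 1143 and 1095 CPM in untreated cells. Both irradiated libraries lay below both untreated ones. The log2 fold change was -0.19 ± 0.12 (SE), with a 95% interval of -0.44 to 0.05 and an edgeR adjusted p of 0.491. On the linear scale this interval ran from 0.737 to 1.04 times the untreated level.

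The end-trimming genes went different ways in value. RBBP8 had 66.9 and 59.7 CPM in irradiated and 75.03 and 75.6 CPM in untreated cells, with no overlap. Its log2 fold change was -0.27 (95% interval -0.75 to 0.22, edgeR adjusted p = 0.670). EXO1 had 36.0 and 30.6 CPM in irradiated and 37.5 and 26.8 CPM in untreated cells, so that the irradiated libraries lay between the untreated ones. Its log2 fold change was 0.03 (95% interval -0.69 to 0.74, edgeR adjusted p = 0.985), and this sign turned in 4 of the 10 alternative settings.

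In the BRCA1 ligase, BARD1 had 64.3 and 67.3 CPM in irradiated and 76.3 and 83.0 CPM in untreated cells, and the groups did not overlap. BRCA1 had 100.3 and 87.2 CPM in irradiated and 96.3 and 98.8 CPM in untreated cells, which overlapped. The log2 fold changes were -0.27 for BARD1 (95% interval -0.74 to 0.21, edgeR adjusted p = 0.659) and -0.08 for BRCA1 (-0.50 to 0.35, edgeR adjusted p = 0.917). Without the second irradiated library the log2 fold change of BRCA1 was 0.041.

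Of the genes that act on the trimmed strand, BRCA2 had 20.6 and 16.8 CPM in irradiated and 27.5 and 23.2 CPM in untreated cells, without overlap. This was the lowest log2 fold change of the 9, -0.47, but with a 95% interval of -1.31 to 0.38 (edgeR adjusted p = 0.671). PALB2 had 20.6 and 18.4 CPM in irradiated and 18.8 and 18.3 CPM in untreated cells. These overlapped, with a log2 fold change of 0.05 (95% interval -0.84 to 0.94, edgeR adjusted p = 0.979) whose sign turned in 2 of the 10 alternative settings. On the linear scale the intervals reached from 0.403 to 1.3 times the untreated level for BRCA2 and from 0.560 to 1.92 times for PALB2, so that changes within them were not detectable at this depth.

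RAD52 and RAD54L, which act on strand annealing and pairing, had the highest values after irradiation relative to untreated cells. RAD52 had 92.6 and 88.7 CPM in irradiated and 72.5 and 85.4 CPM in untreated cells, a log2 fold change of 0.19 (95% interval -0.25 to 0.64, edgeR adjusted p = 0.755). RAD54L had 105.5 and 113.2 CPM in irradiated and 101.3 and 96.4 CPM in untreated cells, a log2 fold change of 0.15 (95% interval -0.25 to 0.56, edgeR adjusted p = 0.791). In both genes the irradiated libraries lay above the untreated ones. Irradiated and untreated libraries were thus separate in 6 of the 9 genes, 4 with irradiated cells lower and 2 with irradiated cells higher, where this held for 44.0% of all tested genes (22.0% in each direction).

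RNA-seq asked which genes the dose changed in RNA level, from a single library in each condition, so no test was made. Of the 9 genes, 0 passed the size rule, which 6.59% of 12977 genes passed (3.00% higher and 3.59% lower). The rule asks for 100 counts or more in one of the libraries, a difference of at least 1.5-fold and a 95% counting interval that leaves out 1. The ratios ran from 0.786 to 1.21. The counting interval left out 1 in 2 of the 9 genes, 1 higher and 1 lower, against 42.4% of all genes (20.4% higher and 22.0% lower). These intervals hold no replicate error.

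BARD1 had 368 RNA-seq counts in irradiated and 463 in untreated cells, a ratio of 0.786 (95% counting interval 0.684 to 0.903). BRCA2 had 457 in irradiated and 374 in untreated cells, a ratio of 1.21 (1.05 to 1.39). BARD1 was thus lower in value in both assays, while BRCA2 was higher in RNA-seq and lower in iCLIP, a difference that was not tested. RBBP8 and RAD51B also had opposite signs in the assays, with RNA-seq intervals that held 1. BRCA1, with 1120 counts in irradiated and 1188 in untreated cells, had a ratio of 0.932 (0.858 to 1.01). PALB2, with 380 in irradiated and 334 in untreated cells, had 1.13 (0.969 to 1.31), and RBBP8, with 865 in irradiated and 796 in untreated cells, had 1.07 (0.975 to 1.18). The other genes were level in value. In irradiated cells EXO1, RAD54L, RAD51B and RAD52 had 704, 626, 438 and 269 counts, and in untreated cells 674, 600.0, 429 and 264. Their ratios lay between 1.01 and 1.03, each with an interval that held 1.

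**Figure D2:**
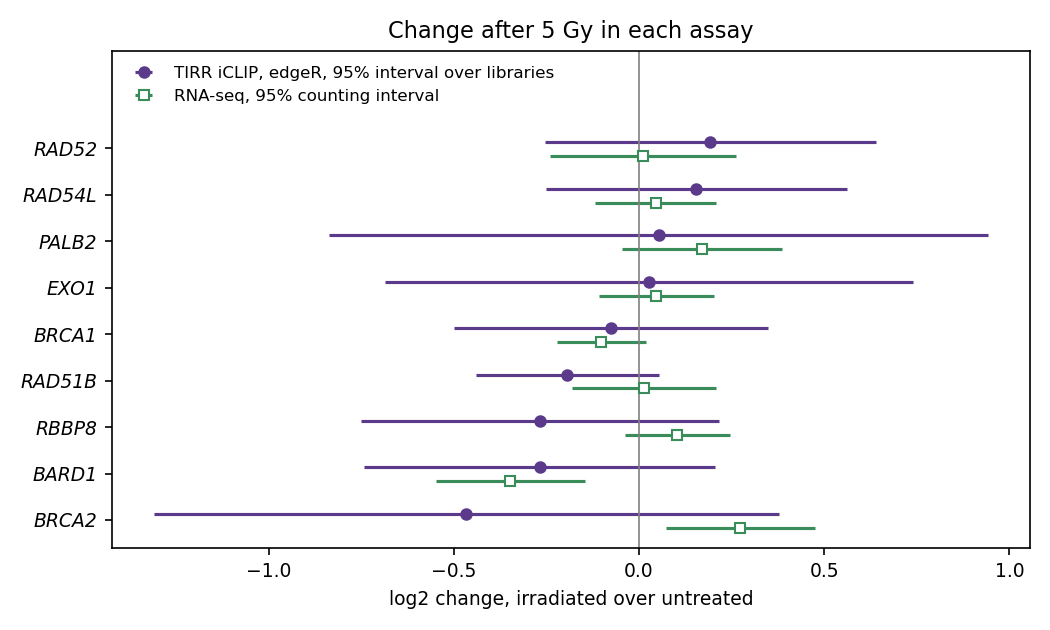
Log2 change, irradiated over untreated, of each gene in TIRR iCLIP (purple circles, 95% interval of the edgeR fit over 4 libraries) and in RNA-seq (green squares, 95% counting interval of 1 library against 1). Every iCLIP interval holds 0, and in RNA-seq only those of BARD1, at -0.35, and BRCA2, at 0.27, do not.

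The neighbours of these genes were read with the same fits, since the sources used here do not say whether counting used strand, and without it reads of overlapping genes on opposite strands cannot be told apart. At the PALB2 window printed above, DCTN5, a subunit of dynactin, had 1008 RNA-seq counts in irradiated and 745 in untreated cells, a ratio of 1.34 (95% counting interval 1.22 to 1.47), beside 1.13 for PALB2. At the BRCA1 window lies the noncoding RNA NBR2, which overlaps the RefSeq span of BRCA1 by 28115 bases on the opposite strand. NBR2 had 154 RNA-seq counts in irradiated and 169 in untreated cells, a ratio of 0.901 (0.720 to 1.13), beside 0.932 for BRCA1. NBR1, an autophagy receptor gene that starts beside the upstream BRCA1 start, had 997 in irradiated and 1314 in untreated cells, a ratio of 0.750 (0.690 to 0.815). None of these 3 neighbours passed the size rule. BRCA1P1, a partial copy of BRCA1, held at most 1 count in any library. In iCLIP, NBR2 had 11 and 28 counts in irradiated and 41 and 41 in untreated cells (log2 fold change -0.45, edgeR adjusted p = 0.526). LRRC41, which overlaps the end of RAD54L by 1012 bases, had 69 and 145 iCLIP counts in irradiated and 127 and 132 in untreated cells (log2 fold change 0.34, edgeR adjusted p = 0.357). ERC1, which overlaps the start of RAD52 by 1164 bases, had 183 and 291 in irradiated and 333 and 351 in untreated cells (log2 fold change 0.11, edgeR adjusted p = 0.772).

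The third question was how the TIRR libraries compare with RNA-seq. The measure was the iCLIP share of gene counts over the RNA-seq share in the same condition. RAD51B stood at 28.5 and 28.3 in irradiated cells and at 35.4 and 34.0 in untreated cells, one library each. In untreated cells it ranked 82 of 11146 genes compared, whose median was 0.909. RAD52 had 4.40 and 4.25 in irradiated and 3.68 and 4.34 in untreated cells. BARD1 had 2.25 and 2.37 in irradiated and 2.21 and 2.41 in untreated cells, and RAD54L had 2.15 and 2.33 in irradiated and 2.26 and 2.15 in untreated cells. These 4 of the 9 genes had a mean ratio of at least 2 in both conditions, as did 29.7% of all genes compared in each condition.

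The other 5 genes lay closer to equal shares. BRCA1 had 1.15 and 1.01 in irradiated and 1.09 and 1.12 in untreated cells. RBBP8 had 0.995 and 0.894 in irradiated and 1.26 and 1.28 in untreated cells. BRCA2 had 0.604 and 0.492 in irradiated and 1.00 and 0.847 in untreated cells. PALB2 had 0.726 and 0.644 in irradiated and 0.771 and 0.754 in untreated cells, and EXO1 had 0.669 and 0.570 in irradiated and 0.753 and 0.543 in untreated cells. With intergenic counts kept in the totals all ratios were higher, and the mean of RBBP8 was 1.17 in irradiated and 1.58 in untreated cells, while that of BRCA2 was 0.679 in irradiated and 1.15 in untreated cells. For RBBP8 in irradiated cells and BRCA2 in untreated cells, the side of equal shares on which the mean lay thus depended on the denominator. Both assays' changes enter the difference between conditions, and none of these differences was tested.

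Gene length moved with this ratio. Across the 11146 genes compared in untreated cells the Spearman correlation of the ratio with length was 0.63, a description over genes that share libraries. Among 223 genes of at least 500 kb the median ratio was 12.2 in untreated cells, against 0.879 in the 10923 shorter genes, and RAD51B ranked 32 of the 223. In irradiated cells RAD51B ranked 38 of 228 such genes, whose median was 9.79. RBBP8, the second longest member by the tables, had a mean ratio of 1.27 in untreated cells, below the median of 3.21 of 2033 genes within 2-fold of its length. On its RefSeq span the median of 3317 such genes was 1.84. For RAD52 and RAD54L the medians of genes within 2-fold of their length were 1.36 and 0.784, below their own mean ratios of 4.01 and 2.21. The part of length, or of reads in introns, in these ratios was not tested.

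**Figure D3:**
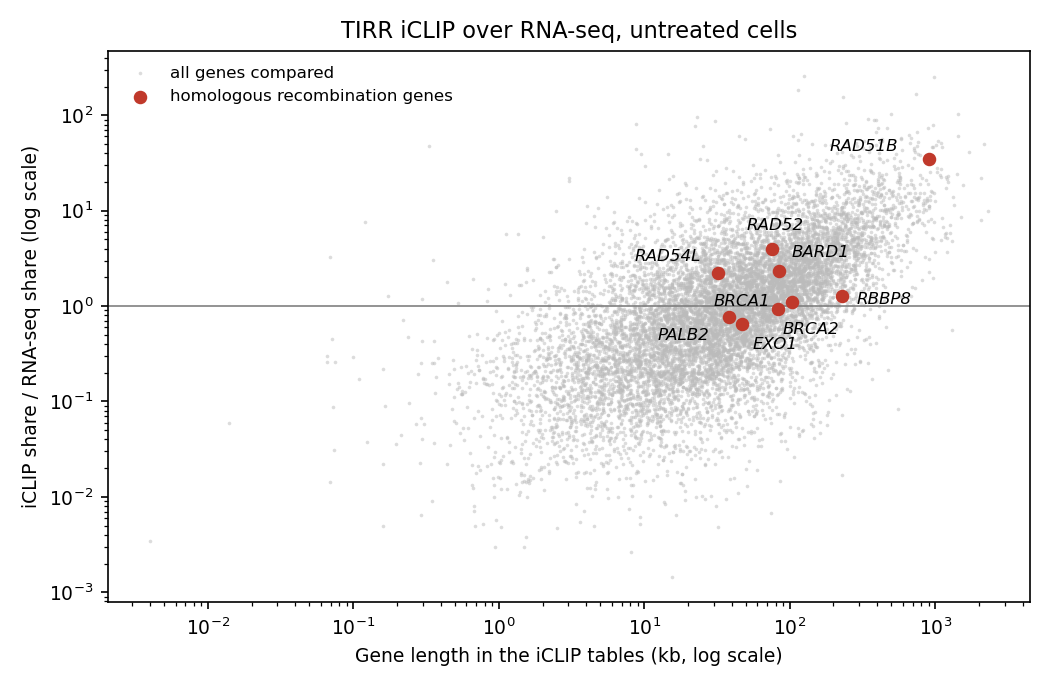
Ratio of the iCLIP share to the RNA-seq share in untreated cells (log scale) against gene length in the iCLIP tables (kb, log scale), with grey points for the 11146 genes compared and red points for the 9 genes. RAD51B, the longest of the 9, has a ratio of 34.7, while RBBP8 at 227.7 kb lies at 1.27, below most genes of that length.

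The wider pathway was read from 52 further genes in 5 groups: strand exchange, end trimming, BRCA1 complexes, junction processing and factors that oppose recombination. In iCLIP 27 of them were tested and 1 rose, RAD51C. This compares with 3.50% of all tested genes called and 2.43% called higher, so a single call among 27 is near the background. Of the 52 genes, 37 have an iCLIP line, and the rest were not analysed there. The median log2 fold change of the 27 tested genes was -0.01. RAD51C, whose protein acts in a complex with that of RAD51B, had 128.6 and 107.1 CPM in irradiated and 30.01 and 43.9 CPM in untreated cells. Its log2 fold change was 1.64 ± 0.25 (SE, 3.12-fold, edgeR adjusted p = 0.000471), and the irradiated libraries lay far above the untreated ones. In RNA-seq RAD51C had 1312 counts in irradiated and 930 in untreated cells, a ratio of 1.40 (95% counting interval 1.28 to 1.52), under the 1.5-fold of the size rule.

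In RNA-seq 1 of 48 further genes with at least 100 counts passed the size rule, where 6.59% of all genes did and 3.59% were lower. It was RMI2, a subunit of the complex that dissolves recombination intermediates. RMI2 had 486 counts in irradiated and 768 in untreated cells, a ratio of 0.626 (95% counting interval 0.557 to 0.702). In iCLIP its value was level, with 74.6 and 65.8 CPM in irradiated and 71.3 and 69.5 CPM in untreated cells (log2 fold change -0.02, edgeR adjusted p = 0.982). The groups with no call are represented by their members with most iCLIP counts. NUCKS1, a chromatin protein listed with end trimming, had a log2 fold change of 0.0031, BABAM2, a subunit of a BRCA1 complex, -0.12, and FBH1, a helicase that opposes recombination, 0.29 (edgeR adjusted p = 0.996, 0.732 and 0.415).

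**Figure D4:**
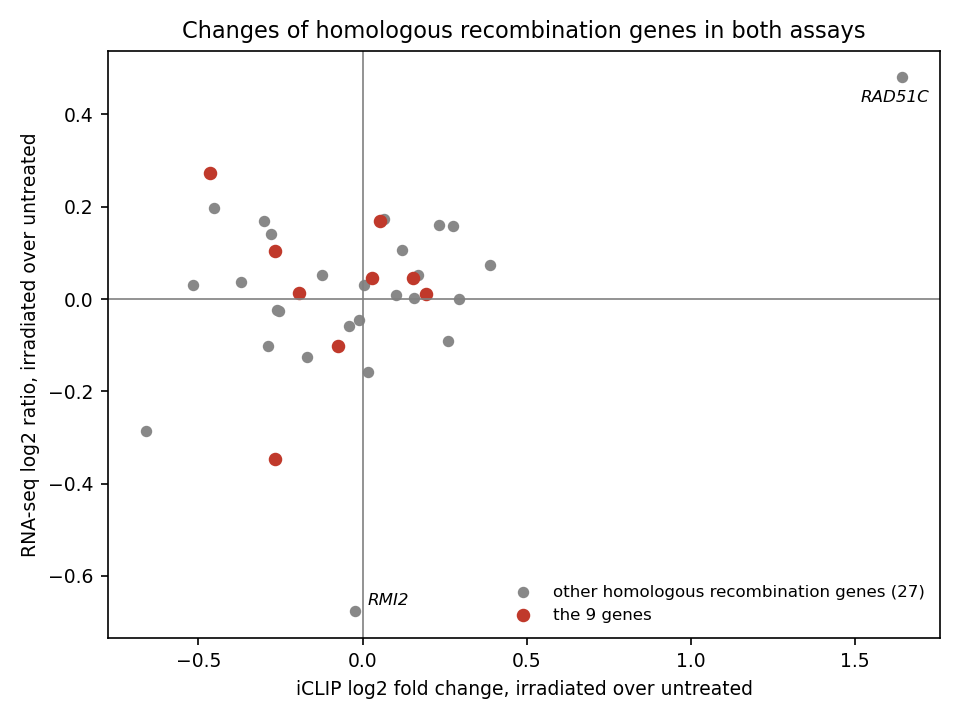
RNA-seq log2 ratio against iCLIP log2 fold change, both irradiated over untreated, for the 9 genes (red) and the 27 further recombination genes tested in iCLIP (grey). RAD51C stands apart at 1.64 in iCLIP and 0.48 in RNA-seq, and RMI2 lies lowest in RNA-seq at -0.68.

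Cell cycle and damage response genes were read in the same libraries, beside 3.50% of all tested genes called in iCLIP (2.43% higher and 1.07% lower) and 6.59% past the size rule in RNA-seq (3.00% higher and 3.59% lower). Of 24 genes of G2 phase and mitosis, 0 were higher and 3 lower among 12 tested in iCLIP, and 17 of 23 were lower past the size rule in RNA-seq. Of 25 S phase genes, 0 of 13 changed in iCLIP and 1 of 25 was lower past the size rule in RNA-seq, both near those shares. By the RNA-seq counting interval alone, 12 of these 25 were lower and 4 higher, against 22.0% and 20.4% of all genes. Of 22 p53 target genes, 13 of 15 rose in iCLIP and 20 of 21 were higher in RNA-seq. The part of the cell cycle in the values of the 9 genes was not tested.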

How the data were processed

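iCLIP and RNA-seq gene tables were read for 6 libraries. The authors deposited cDNA counts for each gene as whole numbers, and each gene's percent of all counts with intergenic ones included, per the file headers. Lengths per gene are also per the file headers. The build is hg38, and kallisto 0.44.0 is named for RNA-seq, both per the submitters' processing notes. The sources used here do not give its role, the aligner, the treatment of duplicates, the annotation or the strand setting. The intergenic line held 30.6% to 31.3% of the counts in iCLIP and 44.4% in RNA-seq and was left out of library sizes and tests.

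Irradiated and untreated iCLIP libraries were compared with the edgeR 4.0.16 quasi-likelihood test in R 4.3.3 (TMM scaling, filterByExpr filter, Benjamini-Hochberg adjustment over all tested genes at 0.05, two-sided). DESeq2 1.42.0 was an alternative. The edgeR step was tested on simulated counts with the same assumed spread for every gene, and the ratio interval on simulated counts with counting error only. These tests do not show how many changes would be found at the spread of these libraries. Standard errors of log2 fold changes were taken as the absolute log2 fold change over the square root of the F statistic of the test. Their intervals use the t distribution of the fit and are approximate. RNA-seq ratios are TMM-scaled, with exact conditional 95% intervals that cover counting error only. Share ratios used a prior count of 0.5 and genes with at least 50 RNA-seq counts. Chi-square per degree of freedom was 1.87 in the irradiated and 1.42 in the untreated pair, a spread beyond counting error. These values cannot show whether replicates came from separate cultures or from one preparation. Python 3.11.15, scipy 1.17.1 and matplotlib 3.10.9 were used.

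The genes and lists were chosen with earlier results of these data known. All 9 genes are named, with further recombination genes past a threshold, the member with most iCLIP counts of groups without a call, and neighbours within 1000 bases that bear on a value. Alternatives varied the scaling, filter, tool, replicate block and libraries.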

Additional observations from a re-analysis of the deposited data

Results flagged for a closer look

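The values of BRCA2 had opposite signs in the assays, with no call in either. Both irradiated iCLIP libraries lay below both untreated ones, with a log2 fold change of -0.47 that was not called (edgeR adjusted p = 0.671), while the RNA-seq log2 ratio was 0.27, under the size rule and with 1 library in each condition. RBBP8 (-0.27 in iCLIP and 0.10 in RNA-seq) and RAD51B (-0.19 and 0.014) also had opposite signs, with RNA-seq counting intervals that held no change. The differences between the assays were not tested.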

How the results depend on the processing

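None of the 9 genes was called in iCLIP under any of the 10 alternatives. The lowest adjusted p was 0.287, for RAD51B with library totals, where its unadjusted p was below 0.05. DESeq2 gave no adjusted p for BRCA2, PALB2 and EXO1. The sign turned for PALB2 (-0.013 with library totals, -0.012 without irradiated replicate 1), for EXO1 (-0.039 with library totals, -0.0028 with no filter, -0.20 without untreated replicate 2, -0.069 without irradiated replicate 1) and for BRCA1 (0.041 without irradiated replicate 2). With 1 library left out the ranges were -0.012 to 0.15 for PALB2, -0.20 to 0.28 for EXO1 and -0.16 to 0.041 for BRCA1. RAD51C was called under all 10 alternatives, with log2 fold changes of 1.39 to 1.94 and adjusted p of 3.45e-07 to 0.0105.

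Over all genes, 323 were called, 111 with DESeq2, and 186 to 421 with 1 library left out (lowest without untreated replicate 1). With library totals 184 rose and 132 fell (58.2% rises), against 224 and 99 (69.3%). With the replicate block 190 genes were called. The labels do not say that numbers pair libraries, and same-numbered deviations correlated at -0.08. The RNA-seq size rule passed 855 genes, 201 at 2-fold and 333 with at least 500 counts, and at 2-fold 0 further recombination genes passed. The counts of genes with a share ratio of at least 2 were 4 under every alternative. With intergenic counts in the totals, mean ratios rose above 1 for RBBP8 in irradiated cells (1.17, against 0.945) and BRCA2 in untreated cells (1.15, against 0.924). The mean ratio of RBBP8 in untreated cells was above 1 either way (1.58, against 1.27). RefSeq spans as lengths, an alternative chosen after seeing the data, gave RBBP8 0.550 counts per kb in irradiated and 0.687 in untreated cells, against 0.271 and 0.339. Counts of 8 to 22 per library limit BRCA2 and PALB2 most.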
